A study of Mus musculus with 6 samples.

Results

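The Dlk1-Meg3 domain is an imprinted gene cluster on mouse chromosome 12, described here through 4 genes, Dlk1, Rtl1, Dio3 and Meg3, of 37991 gene IDs counted. RNA-seq read counts came from mouse PGCLCs (primordial germ cell-like cells), a culture model of the earliest germ line that is derived from stem cells through an epiblast-like stage. The 3 Ezh2 KO libraries carried the label Ezh2-/-, CreERT2 and came from aggregates given 4-hydroxytamoxifen in ethanol during induction, while the 3 Ctrl libraries carried the label Ezh2f/f, CreERT2 and came from aggregates given ethanol only. Both groups were C57BL/6, held the tamoxifen-inducible Cre, were grown with BMP2, SCF, LIF and EGF and were taken on day 4. As only Ezh2 KO was given the drug, loss of Ezh2 cannot be told apart from effects of the drug or of active Cre. The labels do not say whether a single stem cell clone or separate inductions gave the replicates, so the spread between libraries may be partly technical. The domain was chosen by the lower CPM of Dlk1 in Ezh2 KO than in Ctrl, which was known to rest in part on Ctrl replicate 2. The Ezh2 KO against Ctrl values of the 4 genes are therefore given as a description, with no test.

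Imprinted genes are expressed mainly from one parental chromosome, at domains such as this one according to DNA methylation laid down in the parents' germ lines. In this domain the protein-coding genes Dlk1, Rtl1 and Dio3 are known to be expressed from the paternal copy, and the long noncoding RNA Meg3, with the microRNAs and snoRNAs downstream of it, from the maternal copy. A methylated region between Dlk1 and Meg3 controls both sets, and the domain is known to be prone to faulty imprinting in cultured mouse stem cells. Ezh2 encodes the main enzyme of PRC2, the polycomb complex behind the repressive histone mark H3K27me3, and Meg3 RNA has been reported to bind PRC2 in mouse embryonic stem cells. These counts hold no allele information, so the parental origin of the reads was not measured.

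The start regions of the genes show how unlike in base composition the members are, and CG dinucleotides, the sites of DNA methylation, are in capitals. The sequences are from RefSeq, build GRCm38.p6, plus strand, and run from 250 bases before to 50 bases after the annotated start. That build differs from the one named for the counts. They lie at chr12:109452573-109452872 for Dlk1, chr12:109540746-109541045 for the first listed start of Meg3 and chr12:110278980-110279279 for Dio3.
Dlk1: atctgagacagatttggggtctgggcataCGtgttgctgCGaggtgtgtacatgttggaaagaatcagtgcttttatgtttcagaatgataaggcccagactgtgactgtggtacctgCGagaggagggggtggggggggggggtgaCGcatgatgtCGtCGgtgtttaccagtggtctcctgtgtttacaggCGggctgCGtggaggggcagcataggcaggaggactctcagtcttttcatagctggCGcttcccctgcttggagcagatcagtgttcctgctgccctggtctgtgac
Meg3: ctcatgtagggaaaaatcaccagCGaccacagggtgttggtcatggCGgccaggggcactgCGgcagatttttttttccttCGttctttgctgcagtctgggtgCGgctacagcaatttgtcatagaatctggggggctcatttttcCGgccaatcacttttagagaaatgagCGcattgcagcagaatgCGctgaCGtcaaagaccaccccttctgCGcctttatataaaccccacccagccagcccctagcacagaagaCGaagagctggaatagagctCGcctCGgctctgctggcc
Dio3: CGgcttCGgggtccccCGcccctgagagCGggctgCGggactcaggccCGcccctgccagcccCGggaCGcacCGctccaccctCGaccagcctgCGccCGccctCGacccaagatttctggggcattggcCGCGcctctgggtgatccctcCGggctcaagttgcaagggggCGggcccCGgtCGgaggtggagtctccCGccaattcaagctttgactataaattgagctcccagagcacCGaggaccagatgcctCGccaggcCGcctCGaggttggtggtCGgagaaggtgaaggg
The Dlk1 region held 9 CG, the Meg3 region 13 and the Dio3 region 25, against a median of 7 over 32851 promoter regions of the table. CG is its own reverse complement, and 94.6% of these regions held at least 1. Fewer CG than in Dlk1 were found in 54.2% of them, fewer than in Meg3 in 62.1% and fewer than in Dio3 in 81.6%. The observed number was 0.43 of that expected from the base composition for Dlk1, 0.60 for Meg3 and 0.70 for Dio3. A second listed start of Meg3, not printed, held 1 CG in the same window, 0.06 of that expected, and 5.4% of the regions held fewer. No promoter of Rtl1 is shown.

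Levels below are CPM, read counts relative to a library size set to a common scale by TMM. Total counts ran from 27072150 to 38643944 in Ezh2 KO and from 27358959 to 49382146 in Ctrl. Ezh2 itself had 40.7, 67.1 and 70.0 CPM in Ezh2 KO replicates 1 to 3, against 91.8, 78.0 and 95.2 CPM in Ctrl replicates 1 to 3. The means were 59.3 ± 16.1 CPM in Ezh2 KO and 88.3 ± 9.09 CPM in Ctrl (SD, n = 3 each). Ezh2 KO thus kept 67.1% of the Ctrl level, and reads from exons outside the deleted part are counted too. The labels do not name the deleted exons, and how complete the deletion was in these cells was not tested. All 10 primordial germ cell markers listed, among them Prdm1, Tfap2c, Dppa3 and Nanos3, were detected and passed the filter on low counts, with summed levels of 1324 to 1740 CPM in Ezh2 KO and 1651 to 1843 CPM in Ctrl. Nanog had 433 to 562 CPM and Pou5f1 144 to 470 CPM over the 6 libraries, against 3.07 to 7.23 CPM for Prdm1 and 5.09 to 15.6 CPM for Nanos3. EdgeR called 0 of the 10. Their log2 fold changes, Ezh2 KO over Ctrl, were negative in 8 and positive in 2, with a median of -0.29 against 0.01 over all tested genes.

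Dlk1 (ENSMUSG00000040856) encodes a membrane protein with EGF-like repeats, an atypical relative of the Notch ligands that is known to hold back adipocyte differentiation. It had 1.04, 1.08 and 0.494 CPM in Ezh2 KO replicates 1 to 3, from 39, 28 and 20 counts. In Ctrl replicates 1 to 3 it had 4.39, 13.5 and 1.27 CPM, from 213, 381 and 36 counts. Every Ezh2 KO library lay below every Ctrl library, but Ctrl replicate 3 was only 1.18 times the highest Ezh2 KO library. The exact 95% binomial interval, which covers counting error only, was 0.891 to 1.76 CPM in Ctrl replicate 3. It overlapped that of Ezh2 KO replicate 1, 0.741 to 1.42 CPM, and that of Ezh2 KO replicate 2, 0.718 to 1.56 CPM, but not that of Ezh2 KO replicate 3, 0.302 to 0.762 CPM. The intervals of Ctrl replicate 1, 3.82 to 5.02 CPM, and Ctrl replicate 2, 12.2 to 14.9 CPM, were clear of all others. In bulk samples, fewer cells that express Dlk1 and less Dlk1 RNA per cell cannot be told apart.

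**Figure D1:**
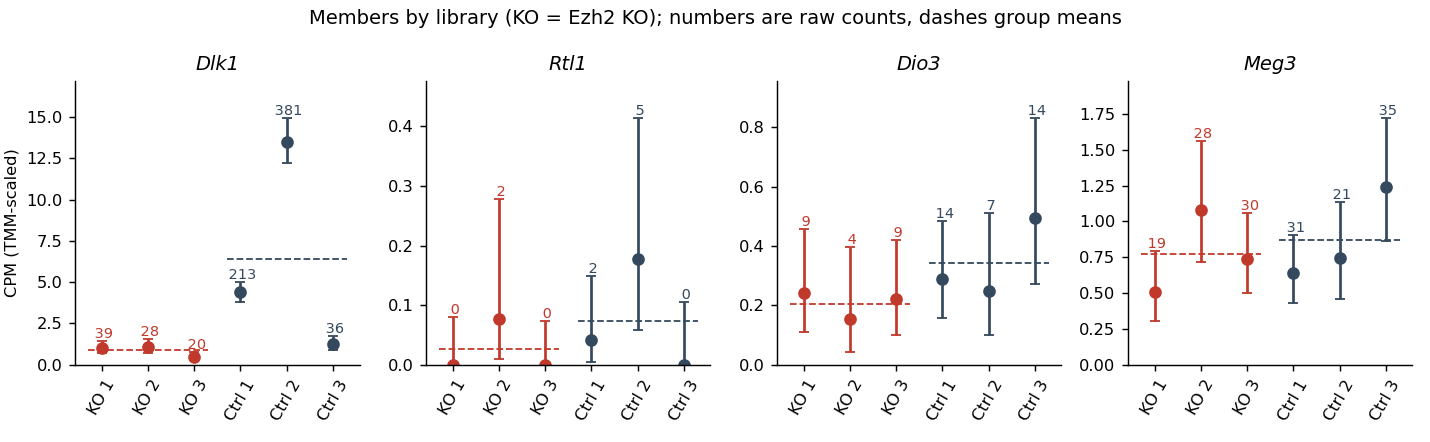
CPM of the 4 genes in each library, Ezh2 KO left (red) and Ctrl right (dark), with exact 95% binomial intervals, raw counts above the points (for a count of 0 the bar ends at 3 counts) and group means as dashes; each panel has its own axis. Dlk1 spans 1.27 to 13.5 CPM among Ctrl libraries, while Rtl1 holds at most 5 counts in a library.

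Dlk1 averaged 0.872 ± 0.328 CPM in Ezh2 KO and 6.39 ± 6.36 CPM in Ctrl (SD, n = 3 each), so the Ctrl SD was nearly as large as its mean. Ctrl replicate 2 alone held 70.5% of the summed Ctrl CPM. The Ezh2 KO mean was 13.6% of the Ctrl mean over all libraries and 30.8% of it without Ctrl replicate 2. It was 68.5% of the level in Ctrl replicate 3. The log2 fold change of Dlk1, Ezh2 KO over Ctrl, was -2.88 ± 0.80 (SE) in edgeR, and -1.72 ± 0.62 without Ctrl replicate 2. Without Ctrl replicate 3 it was -3.41 ± 0.60. Across tested genes, 4.03% had every Ezh2 KO library below every Ctrl library, and 4.07% had every Ezh2 KO library above. As this contrast chose the gene, nothing is read from its place among them.

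**Figure D2:**
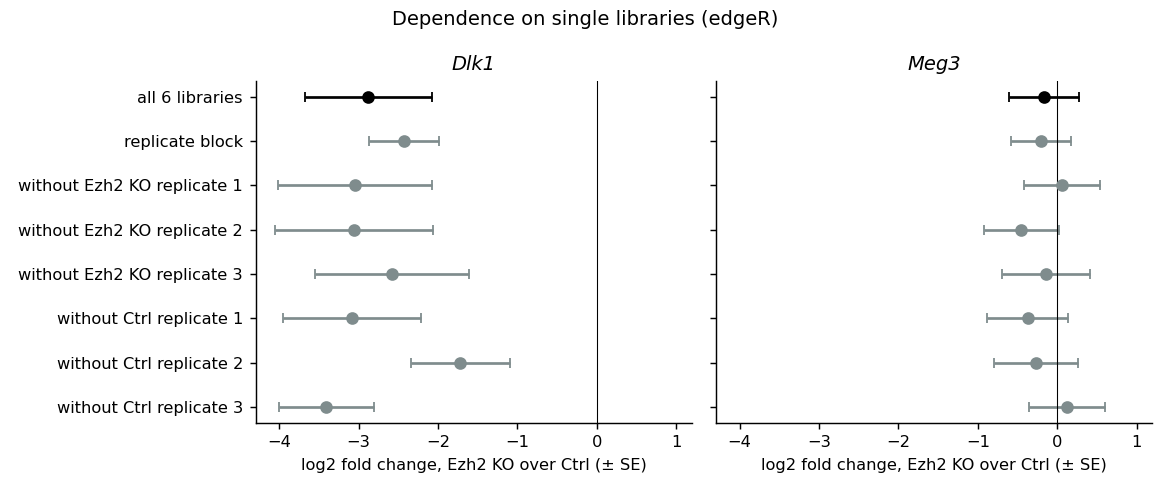
Log2 fold changes (Ezh2 KO over Ctrl, ± SE, edgeR) of Dlk1 and Meg3 with all 6 libraries, with the replicate number as a block and with each library left out. Dlk1 lies between -3.41 and -1.72, with its value nearest to 0 without Ctrl replicate 2, and Meg3 lies between -0.45 and 0.12 on both sides of 0.

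Deviations from the group means correlated at 0.58, 0.37 and 0.19 between libraries of replicate numbers 1 to 3, so Dlk1 was also read within pairs. The value of number 3 lay within the range for libraries of different numbers, -0.52 to 0.30, and no label states the pairing. Ezh2 KO replicate 1 had 23.8% of the Dlk1 level of Ctrl replicate 1. Ezh2 KO replicate 2 had 8.0% of that of Ctrl replicate 2, and Ezh2 KO replicate 3 had 38.8% of that of Ctrl replicate 3. The log2 ratios of the 3 pairs were -2.07, -3.64 and -1.37; as no Ezh2 KO library reached a Ctrl library, their common sign is fixed by the choice of the gene. The fit with a replicate block gave Dlk1 a log2 fold change of -2.43 ± 0.44 (SE).

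The spread of Dlk1 within Ctrl was wide, and it is a description only, since the gene was chosen on these libraries with the part of Ctrl replicate 2 known. Ctrl replicate 2 held 10.6 times, and Ctrl replicate 1 held 3.45 times, the level of Ctrl replicate 3. The highest and lowest Ezh2 KO libraries differed 2.19-fold. On the log2 CPM scale (prior count 2) Dlk1 spanned 1.05 over the Ezh2 KO libraries and 3.35 over the Ctrl libraries, where the median tested gene spanned 0.66 and 0.56. Counting Dlk1, 22 of 16420 tested genes spanned as much or more among Ctrl libraries, and 5 of the 1460 tested genes within 0.5 log2 CPM of its mean level did. Among Ezh2 KO libraries the span of Dlk1 exceeded that of 71.6% of tested genes and of 56.5% of those of like level. The 22 also hold Zscan4c and Zscan4f, marker genes of a transient 2-cell-like state, with 0.535, 1.16 and 0.0494 CPM for Zscan4c in Ezh2 KO replicates 1 to 3 and 2.99, 5.67 and 0.141 CPM in Ctrl replicates 1 to 3. Copies of that cluster share reads, so their separate values are uncertain.

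**Figure D3:**
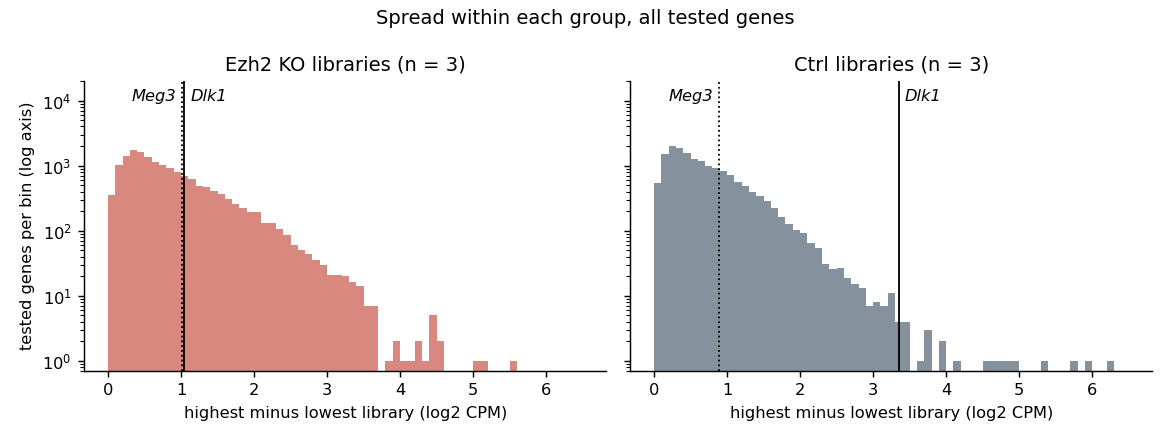
Number of tested genes (log axis) by the difference between the highest and the lowest library of a group, in log2 CPM, for Ezh2 KO (left) and Ctrl (right). Dlk1 (solid line) lies at 1.05 in Ezh2 KO and at 3.35 in Ctrl, in the far tail; Meg3 (dotted line) lies at 1.01 and 0.90.

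Rtl1 (ENSMUSG00000085925) encodes a protein derived from a retrotransposon that is known to be needed for fetal capillaries in the mouse placenta. It was at or near the limit of detection, with 0, 2 and 0 counts in Ezh2 KO replicates 1 to 3 and 2, 5 and 0 counts in Ctrl replicates 1 to 3. A count of 0 allows up to 3 counts, or 0.0802 CPM in Ezh2 KO replicate 1, 0.0741 CPM in Ezh2 KO replicate 3 and 0.106 CPM in Ctrl replicate 3. The groups overlapped and both averaged under 3 counts per library, so no fold is given. The library with most Rtl1 was also that with most Dlk1, Ctrl replicate 2, but 5 counts do not set it apart from the 2 counts of other libraries. Rtl1 is transcribed opposite to an antisense microRNA precursor, and without a stated strand setting reads of the pair cannot be told apart.

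Dio3 (ENSMUSG00000075707), at the far end of the domain, encodes the deiodinase that inactivates thyroid hormone. It had 0.241, 0.154 and 0.222 CPM in Ezh2 KO replicates 1 to 3, from 9, 4 and 9 counts. In Ctrl replicates 1 to 3 it had 0.288, 0.248 and 0.495 CPM, from 14, 7 and 14 counts. The Ezh2 KO libraries lay below the Ctrl libraries, yet the highest Ezh2 KO library and the lowest Ctrl library had intervals of 0.110 to 0.457 and 0.0998 to 0.511 CPM. The gap between them was therefore not detectable at this depth. Dio3 did not pass the filter on low counts. A fit without that filter gave a log2 fold change of -0.72 ± 0.58 (SE). The Ctrl library with most Dio3 was replicate 3, which had the least Dlk1 of the Ctrl libraries.

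Meg3 (ENSMUSG00000021268) is the long noncoding RNA of the maternal copy. It had 0.508, 1.08 and 0.741 CPM in Ezh2 KO replicates 1 to 3, from 19, 28 and 30 counts, against 0.639, 0.745 and 1.24 CPM in Ctrl replicates 1 to 3, from 31, 21 and 35 counts. The groups overlapped, with the lowest library in Ezh2 KO and the highest in Ctrl. Meg3 averaged 0.776 ± 0.288 CPM in Ezh2 KO and 0.874 ± 0.320 CPM in Ctrl (SD, n = 3 each). Its log2 fold change, Ezh2 KO over Ctrl, was -0.17 ± 0.44 (SE, 95% interval -1.19 to 0.85), an interval that holds differences of either sign. The sign turned without Ezh2 KO replicate 1 (0.06) and without Ctrl replicate 3 (0.12). Within pairs the Ezh2 KO library held 79.5%, 145% and 59.8% of the Meg3 level of the Ctrl library of numbers 1 to 3. On the log2 CPM scale Meg3 spanned 1.01 over the Ezh2 KO and 0.90 over the Ctrl libraries, more than 69.9% and 71.6% of tested genes and close to the middle of the 1532 genes of like level (53.9% and 52.1%).

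Per kilobase of annotated exon, Dlk1 stood at 0.154 CPM in Ezh2 KO and 1.13 CPM in Ctrl. Dio3 stood at 0.101 and 0.169 CPM per kilobase in Ezh2 KO and Ctrl. Meg3 stood at 0.0429 CPM per kilobase in Ezh2 KO and 0.0483 in Ctrl, and Rtl1 at 0.00405 in Ezh2 KO and 0.0115 in Ctrl. The order of means was Dlk1, Dio3, Meg3 and Rtl1 in both groups. Dlk1 and Dio3 overlapped between libraries of Ezh2 KO, at 0.0873 to 0.191 and 0.0760 to 0.118 CPM per kilobase. In Ctrl the lowest Dlk1 library, at 0.225, lay below the highest Dio3 library, at 0.244. H19, the imprinted noncoding RNA of another maternal domain, stood at 16.5 CPM per kilobase in Ezh2 KO and 23.0 in Ctrl, far above Meg3. The exon length of Meg3, 18089 bases over all annotated isoforms, makes its value per kilobase a low estimate where short isoforms prevail.

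Other parts of the domain gave almost no reads. Between Dlk1 and Dio3 the table has 79 gene IDs placed there by the annotation, of which 75 are not the 4 members, all of them microRNA or snoRNA genes. These 75 held 8 counts in Ezh2 KO and 1 count in Ctrl, spread over 5 genes, and 6 of the counts were in Ezh2 KO replicate 2. The precursors of such RNAs are shorter than libraries of this kind usually capture, and no mature microRNA was measured. The noncoding genes Rian, Mirg and Dio3os are not analysed here.

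Genes that flank the domain showed no call. Of 11 found, 10 were tested, and edgeR called 0 (0 at an unadjusted p under 0.05), with a median log2 fold change of -0.06 against 0.01 over all tested genes. The share called over all 16420 tested genes was 0%. At an unadjusted p under 0.05 stood 459 of them, 205 lower in Ezh2 KO and 254 higher. Limma-voom called 0 as well, DESeq2 called 13 genes of 17557 (0.074%), and with the replicate block DESeq2 called 50 of 18606 (0.269%) and edgeR 0. The 2 flanking genes of smallest p were Dync1h1, the dynein heavy chain, and Slc25a47, a mitochondrial carrier. Dync1h1 had 115, 72.2 and 117.5 CPM in Ezh2 KO replicates 1 to 3, against 131, 129 and 105 CPM in Ctrl (edgeR adjusted p = 0.976). Slc25a47 had 0.401, 0.540 and 0.666 CPM in Ezh2 KO, against 0.700, 0.780 and 0.672 CPM in Ctrl (edgeR adjusted p = 0.976). Ppp2r5c, a phosphatase subunit gene beyond Dio3, had 233, 337 and 225 CPM in Ezh2 KO and 163, 259 and 287 CPM in Ctrl, with no parting of the groups. Begain, on the Dlk1 side, was not tested, with no count in Ezh2 KO and at most 0.141 CPM in Ctrl.

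DLK1 belongs to the Notch ligand family, and of 35 genes of that pathway 30 were tested. EdgeR called 0 of them, with 0 lower and 1 higher at an unadjusted p under 0.05 (1.25% lower and 1.55% higher over all tested genes). Negative log2 fold changes were found in 23 and positive ones in 7, with a median of -0.18 against 0.01 over all tested genes. In 3 of the 30 every Ezh2 KO library was below every Ctrl library, against 4.03% of all tested genes. Rbpj, the DNA-binding factor through which Notch acts, had 284, 207 and 230 CPM in Ezh2 KO replicates 1 to 3, against 144, 170 and 208 CPM in Ctrl (log2 fold change 0.47 ± 0.19 SE, edgeR adjusted p = 0.976). Ncstn, a subunit of the gamma-secretase that cleaves Notch, had 110, 86.5 and 93.3 CPM in Ezh2 KO, against 109, 128 and 116 CPM in Ctrl (-0.28 ± 0.16 SE, edgeR adjusted p = 0.976). The libraries of both genes overlapped between the groups. Dlk2, the closest relative of Dlk1, was not tested, at 0.134, 0 and 0.247 CPM in Ezh2 KO and 0.0412, 0.142 and 0.212 CPM in Ctrl.

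Genes related to the other protein-coding members gave no calls either. Of 14 genes of the Gag-derived family of Rtl1, 9 were tested and edgeR called 0 (0 at an unadjusted p under 0.05), with a median of -0.23. Peg10, an imprinted placental member, had 68.8, 58.8 and 76.0 CPM in Ezh2 KO replicates 1 to 3, against 52.2, 153 and 103 CPM in Ctrl (edgeR adjusted p = 0.976). Its highest library was Ctrl replicate 2, as for Dlk1, but its lowest was Ctrl replicate 1. Rtl8a had 7.99, 6.48 and 7.36 CPM in Ezh2 KO, against 9.81, 10.1 and 8.80 CPM in Ctrl (edgeR adjusted p = 0.976), with no overlap, and may share reads with the closely related Rtl8b. Rtl8a and Rtl8b were the 2 of the 9 with every Ezh2 KO library below every Ctrl library, against 4.03% of all tested genes. Of 15 genes that handle or sense thyroid hormone, 10 were tested and edgeR called 0 (0 at an unadjusted p under 0.05), with a median of -0.08. The transporter Slc16a10 had 4.62, 3.43 and 5.90 CPM in Ezh2 KO, against 3.13, 4.01 and 4.00 CPM in Ctrl (edgeR adjusted p = 0.976).

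Factors that set or keep the methylation imprint of the domain, listed with Tet1 and Tet2, which oxidise methylcytosine, were all 12 tested. EdgeR called 0 (1 higher at an unadjusted p under 0.05, against 1.55% of all tested genes), with 8 negative and 4 positive log2 fold changes. Dnmt3b, a de novo DNA methyltransferase, had 54.9, 75.8 and 91.2 CPM in Ezh2 KO replicates 1 to 3, against 47.6, 44.4 and 51.9 CPM in Ctrl (0.63 ± 0.21 SE, edgeR adjusted p = 0.976). Tet1 had 262.5, 332 and 411 CPM in Ezh2 KO, against 193, 219 and 320.5 CPM in Ctrl (0.46 ± 0.24 SE, edgeR adjusted p = 0.976). Dnmt3b was the 1 of the 12 with every Ezh2 KO library above every Ctrl library, against 4.07% of all tested genes, and 0 had every one below. The Tet1 libraries overlapped. Of 40 genes found at other loci imprinted through DNA methylation, 37 were tested and edgeR called 0 (3 lower and 0 higher at an unadjusted p under 0.05, against 1.25% and 1.55% of all tested genes). Their median log2 fold change was -0.23, with 26 negative and 11 positive. In 6 of the 37 every Ezh2 KO library was below every Ctrl library, against 4.03% of all tested genes. Magel2 had 0.294, 0.309 and 0.321 CPM in Ezh2 KO, against 0.618, 0.957 and 1.03 CPM in Ctrl (-1.47 ± 0.40 SE, edgeR adjusted p = 0.976), so its 3 Ctrl libraries lay much closer together than those of Dlk1. Sgce, next to Peg10, had 10.98, 15.8 and 9.36 CPM in Ezh2 KO, against 19.1, 20.9 and 17.3 CPM in Ctrl (-0.67 ± 0.26 SE, edgeR adjusted p = 0.976).

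**Figure D4:**
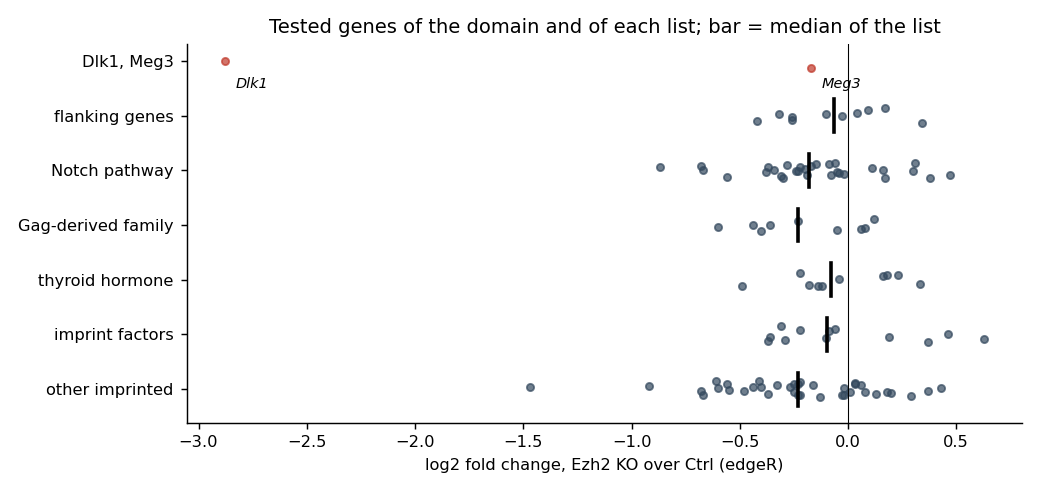
Log2 fold changes (Ezh2 KO over Ctrl, edgeR) of tested genes, one row for Dlk1 and Meg3 and one each for the flanking, Notch, Gag-derived, thyroid hormone, imprint factor and other imprinted genes, with the list median as a bar. Dlk1, at -2.88 (-1.72 without Ctrl replicate 2), lies left of every gene of these 6 lists. As this contrast chose Dlk1, nothing is read from that place. None of the genes of the lists passed the test, and Meg3, at -0.17, lies among them.

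The pattern of Dlk1 over the 6 libraries was compared with that of 12235 genes whose mean log2 CPM reached 1, by Pearson's r of log2 CPM, as a description. Of these, 23 (0.188%) reached 0.9. Among the highest were Clcn3 (0.98), which encodes an endosomal chloride transporter, Ttc28 (0.97), an ID with no symbol (ENSMUSG00000073083, 0.95) and the tubulin gene Tubb5 (0.95). Clcn3 ran from 86.6 to 95.5 CPM in Ezh2 KO and from 96.0 to 111 CPM in Ctrl, a far narrower range than that of Dlk1. Ttc28 had 3.53, 3.55 and 3.68 CPM in Ezh2 KO replicates 1 to 3, against 6.61, 10.1 and 4.35 CPM in Ctrl. Like Dlk1, it was highest in Ctrl replicate 2, next in Ctrl replicate 1 and close to the Ezh2 KO libraries in Ctrl replicate 3.

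Msx1, a homeobox target of BMP signalling singled out after its values were seen, had the same order among the Ctrl libraries, but not among the Ezh2 KO libraries. It had 0.401, 0.347 and 0.247 CPM in Ezh2 KO, against 2.58, 6.88 and 0.813 CPM in Ctrl (r = 0.98 with Dlk1 over 6 libraries). With 6 libraries, all of these likenesses rest on few values. Clcn3, Ttc28, ENSMUSG00000073083, Tubb5 and Msx1 were each highest in Ctrl replicate 2, as Dlk1 was. What each library adds to r was not tested. Meg3 did not follow Dlk1 (r = -0.16). The 5 genes most like Meg3, at r of 0.988 to 0.996, were Fam204a, Xlr5b, Qrsl1, Blvra and Zcchc10. With 19 to 35 counts of Meg3 per library, its counting intervals overlapped between all libraries except Ezh2 KO replicate 1 and Ctrl replicate 3.

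**Figure D5:**
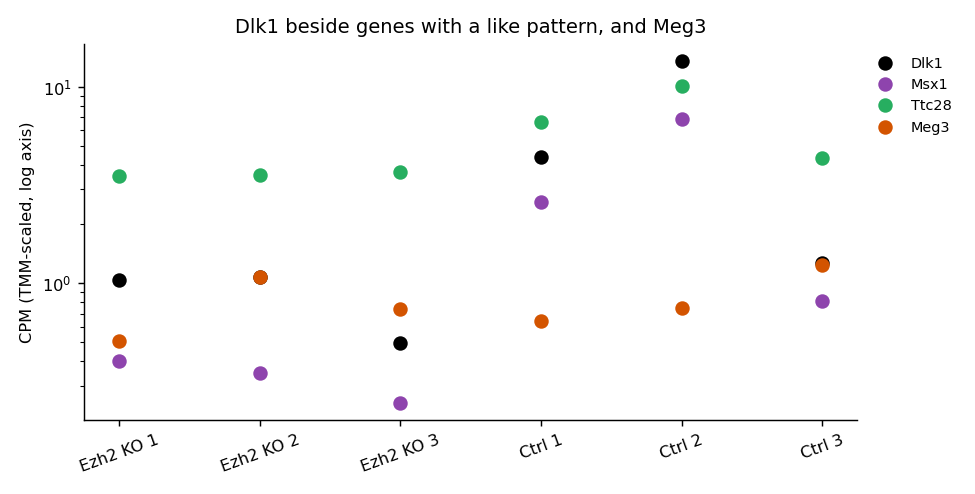
CPM (log axis) of Dlk1, Msx1, Ttc28 and Meg3 in each library, Ezh2 KO left and Ctrl right. Dlk1, Msx1 and Ttc28 are highest in Ctrl replicate 2 and next in Ctrl replicate 1, and Meg3 is highest in Ctrl replicate 3 at 1.24 CPM.

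Markers of other cell types that the aggregates could hold were set beside Dlk1. Mesoderm markers summed to 64.6, 69.9 and 107 CPM in Ezh2 KO replicates 1 to 3 and 61.0, 68.6 and 112 CPM in Ctrl replicates 1 to 3. Most of that sum came from Bmp4, with 38.5, 45.3 and 77.3 CPM in Ezh2 KO and 36.4, 35.5 and 82.1 CPM in Ctrl. Of the 11 tested mesoderm markers, 5 (Msx1, Msx2, Mixl1, Pdgfra and Kdr) were highest of the 6 libraries in Ctrl replicate 2, as Dlk1 was. Kdr was nearly level in Ctrl replicates 2 and 3, at 0.461 and 0.460 CPM. Over all tested genes, 8.39% were highest in Ctrl replicate 2. A larger share was not particular to mesoderm, with 5 of 9 Gag-derived genes, 4 of 10 primordial germ cell markers and 9 of 30 Notch genes. For endoderm it was 0 of 6 and for trophoblast 1 of 10. Foxf1 was at 0 in all libraries. Endoderm markers summed to 3.67 to 6.07 CPM in Ezh2 KO and 5.53 to 8.59 CPM in Ctrl, with Cer1 at 0 throughout and 6 of 13 found markers tested. Trophoblast markers summed to 246 to 400.1 CPM in Ezh2 KO and 167 to 482 CPM in Ctrl, mostly from the keratin genes Krt8 and Krt18. Cdx2 was at most 0.990 CPM and Elf5 at most 1.42 CPM in any library. Fibroblast markers summed to 300.4 to 459 CPM in Ezh2 KO and 446 to 557.5 CPM in Ctrl, mostly from Fn1. Neuroectoderm markers, of which 3 of 10 found were tested, were lower in each Ezh2 KO library, summing to 1.18, 1.16 and 0.839 CPM in Ezh2 KO and 3.36, 3.37 and 2.76 CPM in Ctrl. Within Ctrl the order of that sum was that of Dlk1, with replicates 1 and 2 close together, and Neurog1 had r = 0.76 with Dlk1 over 6 libraries. Neurog2 and Olig2 were at 0 in every library. EdgeR called 0 genes of these 5 marker lists. At an unadjusted p under 0.05, 1 of 11 mesoderm, 1 of 6 endoderm and 1 of 10 trophoblast genes were lower. So were 2 of 8 fibroblast and 2 of 3 neuroectoderm genes, and 1 trophoblast gene was higher. Over all tested genes, 1.25% were lower and 1.55% higher at that level. Msx1, the mesoderm marker of smallest p, had a log2 fold change of -3.36 ± 0.76 (SE, edgeR adjusted p = 0.976), and DESeq2 called it lower (adjusted p = 0.00893, and 0.000207 with the replicate block). Neurog1 had -2.37 ± 0.58 (SE, edgeR adjusted p = 0.976) and was called lower by DESeq2 with the replicate block (adjusted p = 0.0491) but not without it (0.0731). The part of any of these cell types in the Dlk1 difference was not tested.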

How the data were processed

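The deposited values are raw counts (whole numbers, by Ensembl ID) from the authors, in 6 library columns. The submitters' processing notes name mm9 and NCBIM37 as builds, and as tools featureCounts, TopHat2 2.0.11, Trimmomatic 0.33 and CASAVA 1.8.4; no settings and no use of strand are given in the sources used here. Symbols, exon lengths and the order of genes came from GENCODE M21 by gene ID (32919 of 37991 IDs), which belongs to another build. Its coordinates served to place gene IDs between Dlk1 and Dio3 and are not printed.

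Counts were scaled by TMM and tested with edgeR 4.0.16 (R 4.3.3), quasi-likelihood F-test, robust, two-sided, group as the only term, after filterByExpr (minimum count 10), which kept 16420 genes and left 21571. Benjamini-Hochberg adjustment ran over all tested genes, with a threshold of 0.05. Of the 4 members, Dlk1 and Meg3 passed the filter. The fitting was tested on simulated data. Every simulated gene had the same spread, lower than that of Dlk1, and only well-counted genes were changed. The simulation therefore does not cover a spread like that of Dlk1 or counts as low as those of Meg3, Dio3 and Rtl1. Alternatives were DESeq2 1.42.0, limma-voom 3.58.1, other scalings and filters, the replicate block, each library left out and a threshold of 0.10. Deviations from the group means correlated at 0.58, 0.37 and 0.19 between libraries of the same replicate number, and at -0.52 to 0.30 between those of different numbers. The numbers were taken to pair the samples, as each of the 3 was over 0.1. This rests on the data, as no label states a shared batch. It is not established for number 3, whose 0.19 was below the highest value between different numbers.

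Named were the members, domain genes found, the 2 genes of smallest p per list, and the 5 most like Dlk1 and Meg3. Some genes that this rule names are not reported here. Exceptions, chosen after their values were seen, are stated in the text or are Ppp2r5c, Begain, Dlk2, H19, Zscan4c, Zscan4f, Gjb2, Slc16a3, Nanog, Pou5f1, Krt8 and Krt18. The members and lists were chosen with earlier results of these data known. No 2 libraries of a group agreed within sampling noise. Intervals and floors cover counting error only.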

Additional observations from a re-analysis of the deposited data

How the results depend on the processing

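The log2 fold change of Dlk1, whose sign the choice of the gene fixes, had 14 alternatives. It ran from -3.41 without Ctrl replicate 3 to -1.72 without Ctrl replicate 2, with -2.37 in limma-voom. Each move was less than the spread between replicates (1.26 on the log2 scale). That spread is the SD of Dlk1 itself within groups, widened by Ctrl replicate 2, so it is a lenient measure. The log2 fold change of Meg3 had 13 alternatives, from -0.45 without Ezh2 KO replicate 2 to 0.12 without Ctrl replicate 3. Meg3 had no value under the stricter filter. Dio3 did not pass the filter; under the 5 alternatives that fitted it, its values ran from -0.88 without Ctrl replicate 2 to -0.54 without Ezh2 KO replicate 2. Rtl1, at or near the floor in both groups, is given no fold under any alternative.

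EdgeR called 0 genes in all, and so did 13 of 15 alternatives; DESeq2 called 13 and DESeq2 with the replicate block 50. The replicate block in edgeR called 0, gave -2.43 for Dlk1 and -0.20 for Meg3, and changed no call in the lists. The flanking, Notch, thyroid hormone, Gag-derived, imprint factor and other imprinted lists held 0 calls under each of 15 alternatives. Of the cell type marker lists, DESeq2 called Msx1 (adjusted p = 0.00893) and, with the replicate block, Msx1 (0.000207) and Neurog1 (0.0491); the lists of domain noncoding and microRNA genes had no gene to test. Depth limits Rtl1, Dio3 and Meg3, with at most 35 counts in a library.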
